A study of Mus musculus with 12 samples.

Results

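The genes described here are 10 markers of Kupffer cells and other macrophages: Marco, Cd163, Adgre1, Mpeg1, Aif1, Clec4f, Cd5l, C1qa, C1qb and C1qc. They were chosen by gene name, with earlier results of these data known. Every array probe whose single annotated symbol, current or former, was one of these names was taken (Adgre1 was formerly called Emr1). This gave 17 of 45281 probes. Of these, 15 probes for 9 genes exceeded the floor on every array of at least 1 group, as did 22859 probes for 12010 named genes in the whole table. This floor, the median of the mean signals of all probes, stood at log2 6.06, a linear signal of 66.7.

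The 12 arrays, of an Illumina bead type for mouse, fell into 4 groups of 3. The groups were hepatocytes freshly isolated from IkkβDhep mice (Dhep, Cre-positive), hepatocytes freshly isolated from IkkβF/F mice (FF, Cre-negative), fresh liver of Dhep mice and fresh liver of FF mice. All mice were male, of the strain C57BL6/J, and carried floxed alleles of Ikbkb, the gene of the kinase Ikkβ, which activates the transcription factor NF-κB. Dhep mice carried Cre in addition, and the sources used here name no promoter for it. Their age was 4 to 6 weeks in the labels but 6 to 8 weeks in the design text. Since the design text counts 4 mice and 4 RNA samples, each group was treated as 1 RNA sample of 1 mouse that was hybridised to 3 arrays. The p-values below therefore compare RNA samples, and they measure a spread that may be technical. Between groups, the mouse, its genotype and, for hepatocytes, the single isolation cannot be told apart.

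The arrays had median raw intensities of 41.0 to 53.8. Their upper quartiles were 75.5 to 85.7 on the 3 FF hepatocyte arrays and 94.7 to 119 on the others. Normalized arrays correlated across probes with r of 0.997 to 0.998 inside a group and 0.981 to 0.993 across groups. All 16 hepatocyte markers examined exceeded the floor on every array, and their summed linear signal was 254080 to 264507 in Dhep hepatocytes, 251896 to 258298 in FF hepatocytes, 242907 to 247798 in Dhep liver and 255927 to 257222 in FF liver. The sums of Dhep and FF hepatocytes overlapped, and Dhep liver was lowest. Such a linear sum rests largely on genes near the top of the scale, where quantile normalized arrays can differ little. Ahsg, for example, had group means of 15.10 to 15.15, whereas Alb had 7.67 to 8.35 and Fgb 6.17 to 6.36. The sum is thus a weak measure of hepatocyte content. The RNA of the hepatocyte preparations also held macrophage markers, as given below. The targeted gene Ikbkb gave 7.62 to 7.67 in Dhep hepatocytes, 7.28 to 7.39 in FF hepatocytes, 7.38 to 7.58 in Dhep liver and 7.54 to 7.66 in FF liver on the log2 scale of its 1 probe above the floor. Whether that probe lies inside the floxed part of the gene is not known from the files, so its level is no check of the genotype.

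Kupffer cells are the resident macrophages of the liver. They sit in the sinusoids, take up bacteria, dying red cells and debris from portal blood, and store and return iron. Their number and identity depend on signals through the CSF1 receptor, on the transcription factors PU.1, SPIC, LXRα and ID3, and on ligands from neighbouring hepatocytes, stellate cells and endothelial cells. Marco is a scavenger receptor that binds bacteria and particles. Cd163 takes up haemoglobin bound to haptoglobin. Adgre1 encodes F4/80, the surface antigen by which mouse macrophages are usually recognised. Mpeg1 encodes perforin-2, a pore-forming protein of phagosomes, and Aif1 (Iba1) an actin-bundling protein of macrophages. Clec4f is a galactose-binding lectin found in mice almost exclusively on Kupffer cells, and Cd5l (AIM) a secreted protein induced by LXR. C1qa, C1qb and C1qc encode the 3 chains of C1q, the recognition molecule of the classical complement pathway, which macrophages secrete.

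On GRCm38.p6 the C1q genes lie side by side on chromosome 4. C1qb spans chr4:136880126-136886200, C1qc chr4:136889801-136892936 and C1qa chr4:136895916-136898844, with 3600 and 2979 bases between neighbours. Marco lies at chr1:120474538-120505024, Cd163 at chr6:124304636-124330529, Clec4f at chr6:83644542-83656116 and Cd5l at chr3:87357881-87371074. Adgre1 lies at chr17:57358581-57483529, Aif1 at chr17:35170986-35176083 and Mpeg1 at chr19:12460770-12465285. The promoters of Marco, C1qb and C1qc are printed as examples of genes higher in Dhep samples, and that of Cd163 because it was lower there. Those of Aif1 and Mpeg1, which were also higher there, are not printed. Each is the RefSeq sequence of GRCm38.p6 from 250 bases before to 50 bases after a promoter start, read 5′ to 3′ along the gene. For Marco and C1qb the promoter start is at the edge of the gene span given above. For C1qc and Cd163 it lies inside that span. Capitals mark the letters GAGGAA (the core bound by PU.1) and GGGANNNNCC (a form of the NF-κB site) on either strand.
Marco, chr1:120504975-120505274, minus strand: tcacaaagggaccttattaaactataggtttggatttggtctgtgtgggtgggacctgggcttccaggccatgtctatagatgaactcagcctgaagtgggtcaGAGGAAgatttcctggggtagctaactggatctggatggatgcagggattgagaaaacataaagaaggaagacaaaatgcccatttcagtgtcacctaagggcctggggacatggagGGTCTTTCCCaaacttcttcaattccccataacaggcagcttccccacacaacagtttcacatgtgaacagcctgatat
C1qb, chr4:136886151-136886450, minus strand: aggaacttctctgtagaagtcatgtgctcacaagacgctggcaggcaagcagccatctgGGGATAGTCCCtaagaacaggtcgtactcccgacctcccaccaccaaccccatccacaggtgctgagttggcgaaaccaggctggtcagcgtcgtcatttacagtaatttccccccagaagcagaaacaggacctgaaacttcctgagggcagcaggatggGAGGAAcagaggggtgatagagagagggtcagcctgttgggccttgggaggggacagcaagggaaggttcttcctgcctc
C1qc, chr4:136892865-136893164, minus strand: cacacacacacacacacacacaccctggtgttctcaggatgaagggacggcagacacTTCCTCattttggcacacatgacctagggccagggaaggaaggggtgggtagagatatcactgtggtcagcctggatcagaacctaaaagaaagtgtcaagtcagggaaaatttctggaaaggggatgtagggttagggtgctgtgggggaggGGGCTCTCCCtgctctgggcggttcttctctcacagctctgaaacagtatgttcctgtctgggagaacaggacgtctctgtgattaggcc
Cd163, chr6:124304401-124304700, plus strand: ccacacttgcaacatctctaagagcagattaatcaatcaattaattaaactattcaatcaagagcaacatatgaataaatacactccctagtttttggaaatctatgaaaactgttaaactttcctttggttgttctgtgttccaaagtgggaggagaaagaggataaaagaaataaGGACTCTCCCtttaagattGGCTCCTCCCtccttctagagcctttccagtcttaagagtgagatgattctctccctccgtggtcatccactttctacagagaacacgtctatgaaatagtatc
In these windows the PU.1 letters lay 146 bases before the promoter start of Marco, 30 before that of C1qb and 193 before that of C1qc. They were not found in the window of Cd163. The NF-κB letters lay 29 bases before the promoter start of Marco, 40 before that of C1qc, and 73 and 54 before that of Cd163. In C1qb they matched on both strands in an overlapping stretch that begins 191 bases before the promoter start. No PU.1 match overlapped an NF-κB match.

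Promoters of 8 of the 10 genes were in the table used, all but Adgre1 and C1qa. The PU.1 letters were in 5 of the 8 (Marco, Cd5l, C1qb, C1qc and Aif1) and in 28.3% of all 32851 promoters of the same length. The NF-κB letters were in 4 of the 8 and in 20.7% of all promoters. Those 4 are the promoters printed above (Marco, C1qb, C1qc and Cd163), so the printed ones do not stand for the rest. The windows of Mpeg1, Aif1, Clec4f and Cd5l held no match to them. GAAANNGAAA, the letters of an interferon-stimulated response element, were in 1 of the 8 (Aif1) and in 3.44% of all. TTCNNNGAA, which STAT factors bind, was in 0 of the 8 and in 8.30% of all, and TGCTGAC, a half-site of MAF factors, in 0 and 4.67%. The LXR element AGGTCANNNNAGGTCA was in 0 of the 8 and in 0.0152% of all. Both strands were searched. Such matches are descriptions of letters and not binding sites. Of the genes with the PU.1 letters, Marco, C1qb, C1qc and Aif1 were called higher in Dhep samples and Cd5l was under the floor. Of those without them, Mpeg1 was called higher, Clec4f was not called and Cd163 was called lower in Dhep hepatocytes. A link between letters and differences was not tested.

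**Figure D1:**
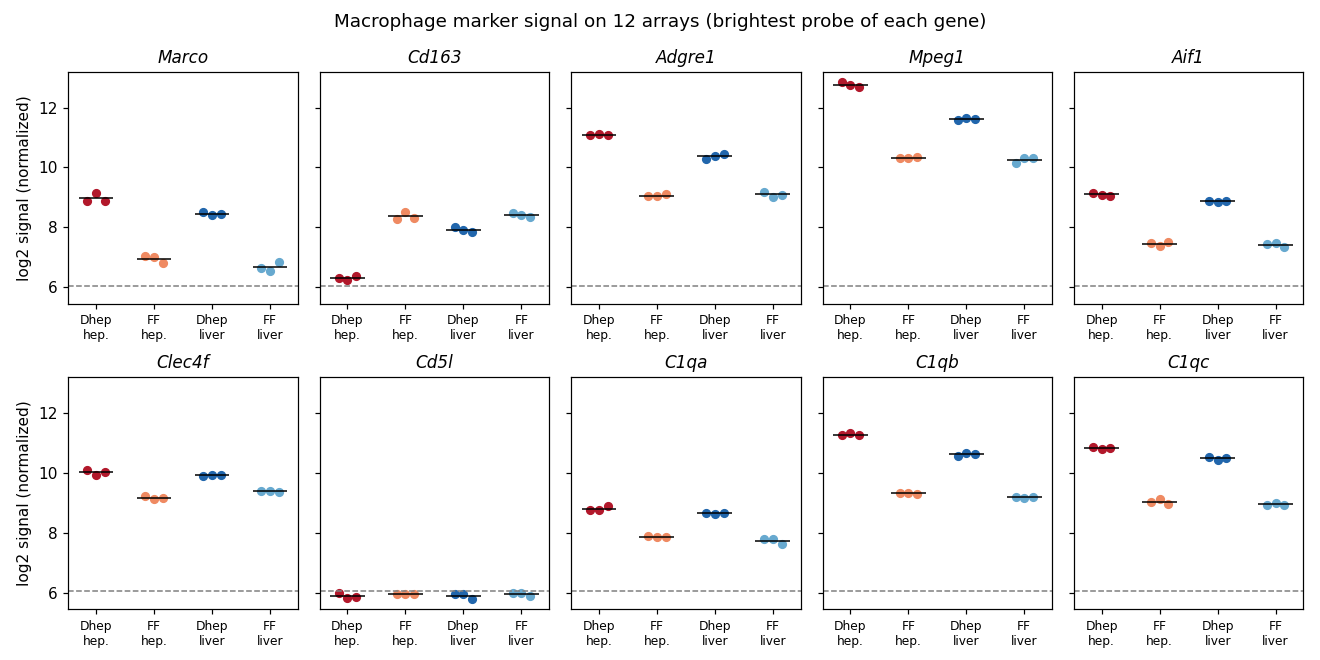
Log2 normalized signal of each marker on the 12 arrays, for the brightest probe of the gene. Groups are Dhep hepatocytes, FF hepatocytes, Dhep liver and FF liver from left to right, points are arrays, bars are group means and the dashed line is the floor of 6.06. In 8 panels both Dhep groups lie above both FF groups, in the Cd163 panel Dhep hepatocytes lie lowest, and in the Cd5l panel all points lie under the floor.

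The level plot of the 10 genes sets out the pattern that the comparisons below take apart. Marco, the scavenger receptor, had log2 signals of 8.88, 9.15 and 8.89 in Dhep hepatocytes, 7.04, 7.01 and 6.80 in FF hepatocytes, 8.53, 8.42 and 8.44 in Dhep liver, and 6.63, 6.54 and 6.84 in FF liver. Both Dhep groups lay above both FF groups with no overlap, and the 2 FF groups overlapped each other. As raw intensity, before any correction, its probe gave 490 to 622 units in Dhep hepatocytes, 70.1 to 95.0 in FF hepatocytes, 293 to 390 in Dhep liver and 76.3 to 95.1 in FF liver. In the FF groups Marco was thus close to the floor, where an added offset in the background correction shrinks differences.

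Cd163, the haemoglobin scavenger receptor, followed another order. Its probe above the floor gave 6.33, 6.25 and 6.38 in Dhep hepatocytes, 8.28, 8.51 and 8.32 in FF hepatocytes, 8.00, 7.91 and 7.85 in Dhep liver, and 8.48, 8.42 and 8.34 in FF liver. Dhep hepatocytes were lowest on all arrays and only just above the floor, Dhep liver came next, and the 2 FF groups overlapped at the top. The raw intensities were 55.3 to 67.5 in Dhep hepatocytes, 209 to 279 in FF hepatocytes, 205 to 266 in Dhep liver and 333 to 408 in FF liver. The other Cd163 probe was under the floor on all 12 arrays and shows neither order.

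Of the general macrophage genes, Adgre1 gave 11.08, 11.11 and 11.08 in Dhep hepatocytes, 9.03, 9.05 and 9.10 in FF hepatocytes, 10.28, 10.40 and 10.43 in Dhep liver, and 9.19, 9.03 and 9.09 in FF liver. Mpeg1 gave 12.84, 12.76 and 12.69 in Dhep hepatocytes, 10.31, 10.31 and 10.36 in FF hepatocytes, 11.58, 11.65 and 11.60 in Dhep liver, and 10.15, 10.33 and 10.31 in FF liver. For both genes the order was Dhep hepatocytes, then Dhep liver, then the FF groups, which overlapped. Aif1 gave 9.15, 9.09 and 9.06 in Dhep hepatocytes, 7.47, 7.39 and 7.53 in FF hepatocytes, 8.89, 8.84 and 8.87 in Dhep liver, and 7.45, 7.47 and 7.34 in FF liver. Its order was the same, with a smaller step between the 2 Dhep groups.

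Of the genes most tied to Kupffer cells, Clec4f gave 10.09, 9.91 and 10.03 in Dhep hepatocytes, 9.21, 9.13 and 9.15 in FF hepatocytes, 9.89, 9.93 and 9.93 in Dhep liver, and 9.39, 9.38 and 9.36 in FF liver. The 2 Dhep groups overlapped, FF liver came next and FF hepatocytes were lowest. Cd5l stayed under the floor on all 12 arrays on its only probe, with group means of 5.89 in Dhep hepatocytes, 5.96 in FF hepatocytes, 5.90 in Dhep liver and 5.96 in FF liver, so no order can be read from it.

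The 3 C1q chains kept nearly the same order among the groups. C1qa gave 8.77, 8.76 and 8.88 in Dhep hepatocytes, 7.90, 7.85 and 7.86 in FF hepatocytes, 8.66, 8.62 and 8.66 in Dhep liver, and 7.79, 7.79 and 7.62 in FF liver. C1qb gave 11.25, 11.32 and 11.25 in Dhep hepatocytes, 9.32, 9.32 and 9.29 in FF hepatocytes, 10.54, 10.67 and 10.61 in Dhep liver, and 9.18, 9.16 and 9.19 in FF liver. C1qc gave 10.87, 10.79 and 10.82 in Dhep hepatocytes, 9.04, 9.11 and 8.96 in FF hepatocytes, 10.54, 10.44 and 10.48 in Dhep liver, and 8.92, 8.99 and 8.92 in FF liver. For each chain, Dhep hepatocytes were highest and Dhep liver next, without overlap. FF hepatocytes came above FF liver without overlap for C1qa and C1qb, and with overlap for C1qc.

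The first comparison set Dhep liver against FF liver. A probe was called when limma's Benjamini-Hochberg adjusted p over all 22859 probes was under 0.05 and its difference was at least 2-fold, a log2 difference of 1. Marco, the C1q chains C1qb and C1qc, Aif1, Mpeg1 and Adgre1 were higher in Dhep liver, by 2.41-fold to 3.46-fold. C1qa and Clec4f had positive differences short of 2-fold, and Cd163 was the 1 measured marker with a negative difference. In all, 6 of the 9 measured markers were called higher and 0 lower, where 0.503% of all 22859 probes were called higher and 0.0919% lower. At an unadjusted p under 0.05, limma had 8 markers higher and 1 lower in Dhep liver, where 17.1% of all probes were higher and 20.5% lower. The median log2 difference of the 9 was 1.35, against -0.03 over all named genes. In these bulk RNA samples, more macrophages in Dhep liver and more of a transcript per macrophage cannot be told apart, and the same holds for fewer cells and less transcript where a marker was lower, and for hepatocyte preparations.

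Among the markers called in liver, Marco had the largest log2 difference, 1.79 ± 0.08 (SE from 3 arrays a group; limma adjusted p = 1.67e-14). C1qc followed with 1.54 ± 0.06 (limma adjusted p = 2.92e-16). Aif1 was higher by 1.45, C1qb by 1.43, Mpeg1 by 1.35 and Adgre1 by 1.27, each with an SE of 0.05 to 0.06. Of those not called, C1qa had a log2 difference of 0.91 ± 0.06, or 1.88-fold, and Clec4f one of 0.54 ± 0.06, or 1.45-fold. Cd163 had a difference of -0.50 ± 0.06, or 1.41-fold lower in Dhep liver, with a limma adjusted p of 2.68e-06, so it missed the call by its size.

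Probes of the same gene differed in size and not in direction in liver. The second Adgre1 probe gave 1.25, close to the brightest, and the third, whose mean in FF liver was at the floor, gave 0.83, which stands for at least 1.77-fold. The other Aif1 probes gave 1.13 and 0.52. The dim probes of Mpeg1 and Clec4f gave 0.24 and 0.29. The third Adgre1 probe and the dim Mpeg1 probe passed the floor only through Dhep groups, which favoured their direction. When every probe of a gene above the floor had to be called, 3 markers were called higher in liver (Marco, C1qb and C1qc), each of which has 1 such probe.

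**Figure D2:**
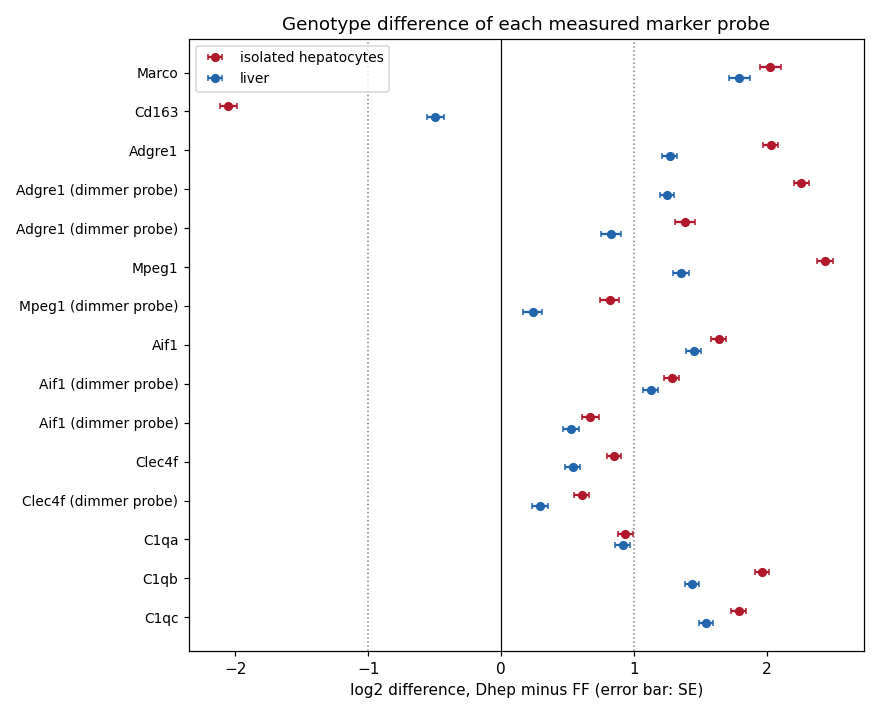
Log2 difference, Dhep minus FF, of the 15 marker probes above the floor in isolated hepatocytes and in liver, with standard errors. Dotted lines mark a log2 difference of 1 in either direction. All probes but that of Cd163 lie right of 0 in both preparations, and the hepatocyte point lies further from 0 than the liver point for each probe.

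The second comparison set Dhep hepatocytes against FF hepatocytes and asked the same of the isolated cell preparations. Mpeg1, Adgre1, Marco, C1qb, C1qc and Aif1 were higher in Dhep hepatocytes, by 3.11-fold to 5.42-fold. Cd163 was lower, by 4.15-fold. C1qa and Clec4f again had positive differences short of 2-fold. In all, 6 of the 9 measured markers were called higher and 1 lower, where 1.22% of all probes were called higher and 1.24% lower. The median difference of the 9 was 1.79, against -0.00 over all named genes.

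Mpeg1, the pore-forming protein of phagosomes, had the largest difference in hepatocytes, 2.44 ± 0.06 (SE from 3 arrays a group; limma adjusted p = 2.73e-20). The F4/80 gene Adgre1 was higher by 2.03 ± 0.06 and Marco by 2.02 ± 0.08. C1qb was higher by 1.97, C1qc by 1.79 and Aif1 by 1.64. C1qa had a difference of 0.93 ± 0.06, or 1.91-fold, and Clec4f one of 0.85 ± 0.06, or 1.80-fold. Both passed the fold of 2 when arrays were scaled to a common median instead of being quantile normalized, C1qa with 1.39 and Clec4f with 1.31.

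Cd163 had a difference of -2.05 ± 0.06 in hepatocytes (SE from 3 arrays a group; limma adjusted p = 5.47e-18). Its difference lay 3.93 log2 units below the median of the other 8 markers, and the next lowest of them was Clec4f at 0.85. In liver the same gap was 1.89 log2 units wide, with Cd163 at -0.50 and the median of the others at 1.39. Since the Cd163 signal in Dhep hepatocytes was near the floor, its fold depends on the background correction: the difference was -2.70 with an offset of 16 in place of 50. The direction was the same in each of the 24 alternatives tried.

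The other Adgre1 probes gave 2.26 and 1.38 in hepatocytes, the last against a group under the floor, where it stands for at least 2.49-fold. The other Aif1 probes gave 1.28 and 0.67, and the dim probes of Mpeg1 and Clec4f gave 0.82 (at least 1.67-fold) and 0.60. When every probe above the floor had to be called, 4 markers were higher in hepatocytes (Marco, Adgre1, C1qb and C1qc). Every probe above the floor had the direction of the brightest probe of its gene in both genotype comparisons. The dimmest Adgre1 probe and the dim Mpeg1 probe passed the floor only through Dhep groups, so the filter favoured this direction. Their direction is therefore no support for the brightest probes, and the count of 4 includes this Adgre1 probe.

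A further comparison set isolated hepatocytes against liver within each genotype. In Dhep mice Mpeg1 was higher in hepatocytes than in liver, by 2.22-fold, and Cd163 was lower, by 3.04-fold. These were the 1 marker called higher and the 1 called lower, where 0.494% of all probes were called higher and 0.472% lower. In FF mice 0 of the 9 markers were called, where 1.25% of all probes were called higher and 0.192% lower. At an unadjusted p under 0.05, limma had 3 markers higher and 1 lower there, where 23.0% of all probes were higher and 30.3% lower.

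Within Dhep mice, the log2 difference of Mpeg1 was 1.15 ± 0.06 (SE from 3 arrays a group; limma adjusted p = 1.35e-13) and that of Cd163 was -1.60 ± 0.06 (limma adjusted p = 1.59e-15). The dim probe of Mpeg1 gave 0.48 and was not called. The remaining markers had positive differences under 1. They were 0.72 for Adgre1, 0.66 for C1qb, 0.52 for Marco, 0.34 for C1qc, 0.23 for Aif1, 0.15 for C1qa and 0.09 for Clec4f. No measured marker but Cd163 had a negative isolation difference in Dhep mice.

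Within FF mice the differences ran from -0.22 ± 0.06 for Clec4f to 0.28 ± 0.08 for Marco (SE, n = 3 arrays per group), with Cd163 at -0.05 ± 0.06. Their median was 0.07, against -0.03 over all named genes. With median scaling the median became -0.39, and the values of Mpeg1, Aif1, C1qa, C1qb and C1qc turned negative. FF hepatocyte arrays had the lowest raw upper quartiles, and scaling moved the median over all probes in this comparison by -0.12 log2 units. The direction in FF mice thus depends on the scaling.

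**Figure D3:**
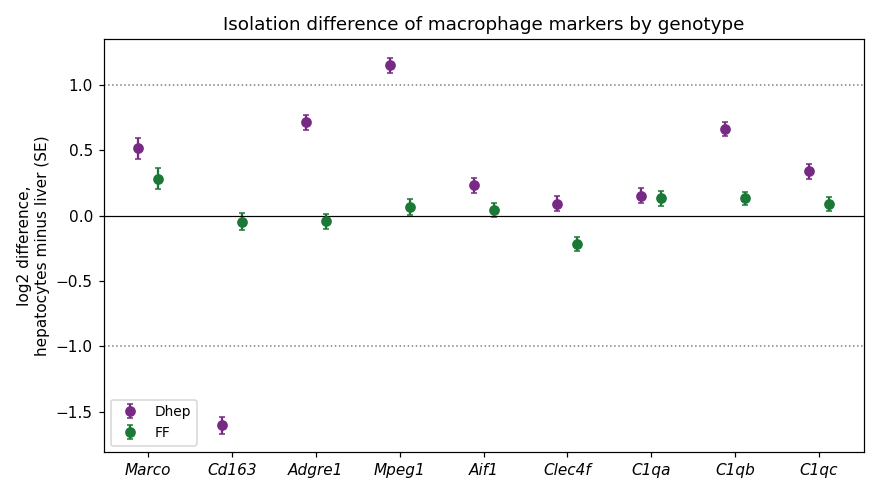
Log2 difference, hepatocytes minus liver, of the 9 measured markers in Dhep and in FF mice, with standard errors. Dotted lines mark a log2 difference of 1 in either direction. The FF points lie between -0.22 and 0.28, and the Dhep points of Mpeg1 (1.15) and Cd163 (-1.60) lie outside the dotted lines.

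Whether the genotype difference itself differed between preparations was tested as an interaction, the hepatocyte difference minus the liver difference. Mpeg1 passed with 1.08 ± 0.08 (SE from 3 arrays a group; limma adjusted p = 2.13e-10) and Cd163 with -1.56 ± 0.09 (limma adjusted p = 1.95e-12). The dim probe of Mpeg1 gave 0.58 and was not called. These were 1 marker called higher and 1 called lower, where 0.748% of all probes were called higher and 1.78% lower. Adgre1 had 0.76 on its brightest probe and 1.01 on its second, which was called, and 0.56 on the dimmest. C1qb had 0.53, Clec4f 0.31, C1qc 0.25, Marco 0.23, Aif1 0.19 and C1qa 0.02. For these 6 no difference between preparations as large as 2-fold was shown. Median scaling raised the median interaction of the 9 markers to 0.84, against 0.25 with quantile normalization, and the number called higher to 3.

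Since the arrays of a group were treated as repeats of 1 RNA sample, a second model was fitted to the 4 RNA means, with genotype and preparation as additive terms. It leaves 1 residual degree of freedom, to which limma adds 2.33 from the prior. The genotype differences were 1.91 for Marco, 1.89 for Mpeg1, 1.70 for C1qb, 1.66 for C1qc, 1.65 for Adgre1, 1.54 for Aif1, 0.92 for C1qa, 0.69 for Clec4f and -1.27 for Cd163. No probe of the table was called in it, and the limma adjusted p of the 9 markers was 0.901 to 0.917. At an unadjusted p under 0.05, limma had 8 of the 9 markers higher in Dhep and 0 lower, where 775 of 22859 probes were higher and 351 lower, 4.93% together. For isolation it had 1 of 9 higher, where 975 probes were higher and 716 lower, 7.4% together. If each group holds 1 mouse, as treated here, the array tests above carry no spread between mice.

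Genes with a profile over the 4 groups most like that of a marker were found by the distance between group means, each profile centred on its own mean, over 12009 other genes. Nearest to Marco were Psmb8 (0.14 log2 units), Tff3 (0.25), C1qb (0.26), Psmb9 (0.27) and Eif4e3 (0.28). Psmb8 and Psmb9 encode immunoproteasome subunits, and Tff3 is a trefoil factor. C1qc ranked 6, Adgre1 7, Aif1 11 and Mpeg1 14 among them, whereas C1qa ranked 88 and Clec4f 186.

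Nearest to Cd163 were Erdr1 (0.15), Cib3 (0.45), Csad (0.51), Slpi (0.52) and Hamp2 (0.53). Csad is an enzyme of taurine synthesis, Slpi is a protease inhibitor and Hamp2 a relative of the iron hormone hepcidin. Erdr1 had a second probe with another pattern, 0.09 in liver and -1.04 in hepatocytes, against -0.65 and -2.04 on the brighter one. The other 8 markers ranked 11702 to 11987 of 12009 by distance from Cd163. Nearest to Clec4f were Itgb7 (0.05), Tpm3 (0.08), Il7 (0.08), Ces3a (0.09) and Cd72 (0.10). The other probes of Tpm3 did not share its profile, with differences of -0.05 to 0.15 in hepatocytes against 0.85 on the brightest. C1qa ranked 212 among the neighbours of Clec4f. These likenesses are over 4 group means and carry no test.

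A list of 30 other genes of Kupffer cells and macrophages, also chosen with earlier results of these data known, held 26 measured genes. In hepatocytes 13 of the 26 were called higher in Dhep and 0 lower, where 1.22% of all probes were called higher and 1.24% lower. At an unadjusted p under 0.05, limma had 24 of them higher and 0 lower, where 29.8% of all probes were higher and 28.1% lower. Their median difference was 1.00, against -0.00 over all named genes. The Fc receptor Fcgr4 was higher by 2.18, the lysosomal membrane gene Laptm5 by 1.98, the lysozyme gene Lyz1 by 1.94 and the CSF1 receptor Csf1r by 1.92 on the log2 scale. In liver 9 were called higher and 0 lower, with a median of 0.55, where 0.503% of all probes were called higher and 0.0919% lower. The largest were the Fc receptor chain Fcer1g (1.25), Csf1r (1.16, and 0.66 on its other probe), Lyz1 (1.15) and Laptm5 (1.13). With median scaling 15 were called higher in hepatocytes and 2 in liver, so the number in liver rests on differences close to 2-fold.

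The genotype difference of some of these genes differed between preparations. Timd4, a receptor for dying cells on resident Kupffer cells, had mean log2 signals of 8.61 in Dhep hepatocytes, 7.40 in FF hepatocytes, 7.61 in Dhep liver and 7.58 in FF liver. It was thus higher in Dhep hepatocytes than in the other 3 groups, with an interaction of 1.18 ± 0.09 (limma adjusted p = 1.01e-10). Fcgr4 had an interaction of 1.15 ± 0.08 and was the other of the 2 genes of the list called, a number that median scaling raised to 12. Over all probes 0.748% were called higher for the interaction. Timd4 and Fcgr4 were also the 2 genes of the list called higher for isolation in Dhep mice, with 1.00 and 1.13, where 0.494% of all probes were. Timd4 was not called there without Dhep liver replicate 2 (0.97), Dhep liver replicate 3 (0.99) or Dhep hepatocytes replicate 3 (0.99). The complement receptor gene Vsig4 had a genotype difference of 1.67 in hepatocytes and 1.00 in liver. Folr2, a folate receptor of resident macrophages, had means of 7.38 in Dhep hepatocytes, 7.50 in FF hepatocytes, 8.38 in Dhep liver and 7.67 in FF liver. Its isolation difference in Dhep mice was negative and just short of a call (limma adjusted p = 2.65e-11), and its genotype difference was -0.13 in hepatocytes and 0.71 in liver, neither called. The isolation difference of Folr2 was called without Dhep liver replicate 1 (-1.01), Dhep liver replicate 3 (-1.07) or Dhep hepatocytes replicate 3 (-1.04). With Cd163 it was the measured macrophage gene of either list with the lowest isolation difference in Dhep mice.

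Among 12 measured transcription factors of Kupffer cells and genes of the CSF1 system, 2 were called higher and 0 lower in Dhep hepatocytes. Of all probes, 1.22% were called higher there and 1.24% lower. Spic, which red pulp and bone marrow iron-recycling macrophages need, was higher by 1.55 (0.72 on its other probe), and Irf8, a factor of the monocyte lineage, by 1.24. In liver 0 were called. At an unadjusted p under 0.05, limma had 8 higher and 1 lower there, where 17.1% of all probes were higher and 20.5% lower. Spic and Irf8 had differences of 0.51 and 0.62 there. The isolation difference of Spic was 1.13 in Dhep mice, where it was the 1 factor called, and its interaction of 1.04 was also called. Over all probes 0.494% were called higher for that isolation difference and 0.748% for the interaction. The other Spic probe gave 0.50 for isolation in Dhep mice and 0.52 for the interaction.

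Few other genes of the classical complement pathway were called. Of 17 measured genes, 1 was called higher in Dhep hepatocytes, the protease gene C1s1 (1.06), and 0 were called in liver. Of all probes, 1.22% were called higher in hepatocytes and 0.503% in liver. At an unadjusted p under 0.05, limma had 9 higher and 1 lower in liver, where 17.1% of all probes were higher and 20.5% lower. Most of this list is made by hepatocytes. C4b gave 0.18 on its brightest probe in hepatocytes and 1.86 and 1.91 on the others. It is a near-identical copy of C4a, which gave 0.52 on its brightest probe and -0.28 to 0.06 on the others. Why the C4b probes disagree was not tested, so the value of C4b is uncertain. Of 12 genes of haemoglobin and haem handling, to which Cd163 feeds its cargo, 1 was called higher in Dhep hepatocytes. It was Hmox1 (1.82), the haem oxygenase, whose interaction of 1.08 was also called. Hmox1 and Cd163 therefore had opposite directions in the same RNA samples. The brightest probe of Hp (haptoglobin), near the top of the scale, gave 0.04 in hepatocytes, and the others 0.99 to 1.09. In liver they gave 0.21 and 0.72 to 0.74. For Hpx the brightest probe gave 0.09 and the other 0.76 in hepatocytes, and 0.08 and 0.58 in liver. The other probes of Blvrb, Fth1 and Tfrc gave -0.30, 0.01 and 0.13 in hepatocytes. In liver 0 of the 12 were called. At an unadjusted p under 0.05, limma had 3 higher and 2 lower there, where 17.1% of all probes were higher and 20.5% lower.

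**Figure D4:**
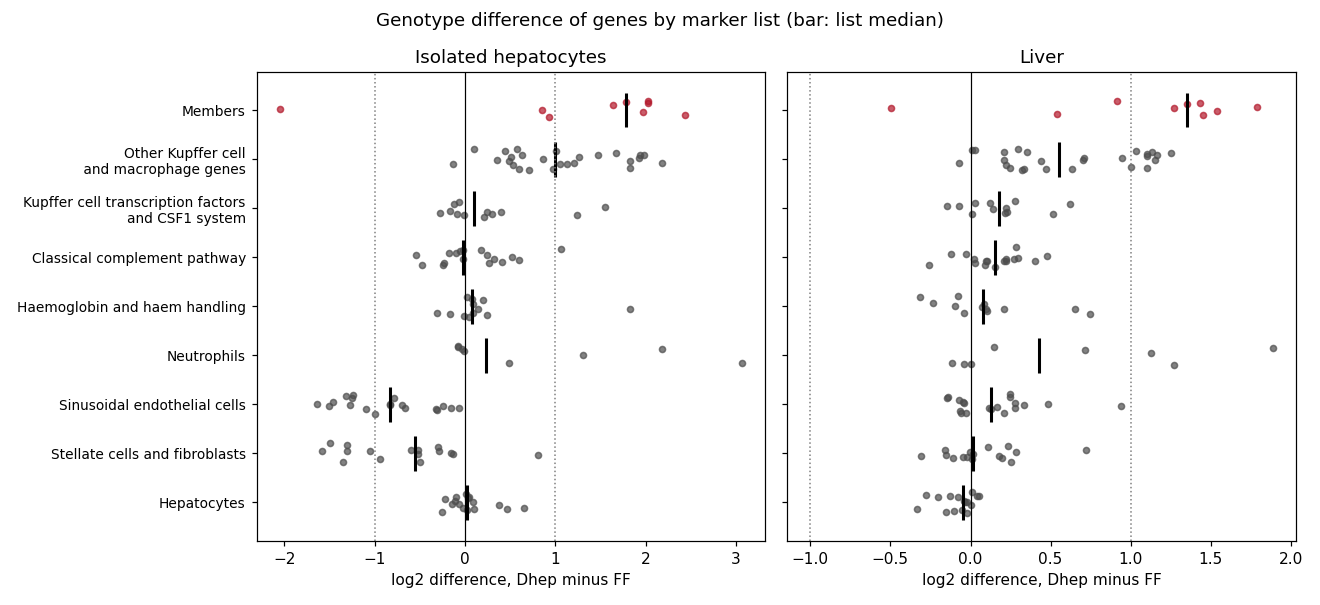
Log2 difference, Dhep minus FF, of each measured gene in 9 lists, in isolated hepatocytes (left) and in liver (right). Points are genes, bars are list medians and dotted lines mark a log2 difference of 1 in either direction. The medians of the 9 markers are 1.79 and 1.35, and in hepatocytes the medians of sinusoidal endothelial genes (-0.83) and of stellate cell and fibroblast genes (-0.56) lie left of 0.

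Markers of other liver cells are given beside these values, and their part in the results was not tested. The summed linear signal of the 9 macrophage markers was 15639.9 to 16437 in Dhep hepatocytes, 4405 to 4442 in FF hepatocytes, 9743 to 10001 in Dhep liver and 4309 to 4387 in FF liver. The sum of 19 genes of sinusoidal endothelial cells was 9472 to 9883 in Dhep hepatocytes, 18708 to 19239 in FF hepatocytes, 16843 to 17167 in Dhep liver and 15524 to 15591 in FF liver. The sum of 16 genes of stellate cells and fibroblasts was 5556 to 5680.3 in Dhep hepatocytes, 11524 to 11936 in FF hepatocytes, 12610.5 to 12881 in Dhep liver and 12234 to 12514 in FF liver. Dhep hepatocytes were thus the group with the highest macrophage sum and the lowest sums of both other nonparenchymal lists.

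In Dhep hepatocytes 8 of the 19 sinusoidal endothelial genes were called lower and 0 higher, where 1.24% of all probes were called lower and 1.22% higher. The largest were Ramp2 (-1.63), Gpr182 (-1.51), Flt1 (-1.46) and Stab1 (-1.32, and -0.84 to -0.64 on its other probes). Of the 16 genes of stellate cells and fibroblasts 6 were called lower and 0 higher, led by Acta2 (-1.58, and -0.40 to -0.20 on its other probes), Bgn (-1.50), Sparc (-1.35) and Colec11 (-1.31). With median scaling 2 genes of each list were called lower and 1 of the stellate list was called higher. In liver 0 of either list were called, and limma had 11 higher and 2 lower of the endothelial and 6 higher and 3 lower of the stellate genes at an unadjusted p under 0.05, where 17.1% of all probes were higher and 20.5% lower. Of 16 hepatocyte genes, several of them near the top of the scale where differences are compressed, 0 were called in either genotype comparison. Limma had 3 higher and 3 lower at an unadjusted p under 0.05 in hepatocytes and 0 higher and 4 lower in liver. At that threshold 29.8% of all probes were higher in hepatocytes and 28.1% lower.

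Of 8 measured neutrophil genes, 3 were called higher and 0 lower in each genotype comparison. They were Lcn2 (3.07 in hepatocytes, 1.89 in liver), Fpr2 (2.18 and 1.27) and S100a8 (1.31 and 1.13). Of all probes, 1.22% were called higher in hepatocytes and 0.503% in liver. Lcn2 is also an acute-phase gene of hepatocytes, and the neutrophil genes Ngp and Retnlg did not pass the floor in any group. The list's sum was 3894 to 4177 in Dhep hepatocytes, 882 to 934 in FF hepatocytes, 1807 to 1917 in Dhep liver and 823 to 851 in FF liver. The higher sum in Dhep hepatocytes was not shared by all its genes. There S100a9 had a difference of 0.49, and Camp, Ltf, Mpo and Elane had -0.08, -0.08, -0.02 and -0.03. Among monocyte genes the defining markers Ccr2, Chil3, F13a1 and Vcan did not pass the floor in any group. Of the 5 measured, 0 were called, and limma had 3 higher in hepatocytes and 4 in liver at an unadjusted p under 0.05. At that threshold 29.8% of all probes were higher in hepatocytes and 17.1% in liver. Plac8 had the largest difference of the 5 genes, 0.96 in hepatocytes and 0.50 in liver.

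Among dendritic cell genes Itgax, Flt3, Xcr1 and Cd209a did not pass the floor in any group. Of the 7 measured, 1 was called lower in Dhep hepatocytes, Siglech (-1.46, and -0.13 on its other probe), and 0 in liver. Of all probes, 1.24% were called lower in hepatocytes. At an unadjusted p under 0.05, limma had 5 higher and 1 lower in liver, where 17.1% of all probes were higher and 20.5% lower. Of 7 measured T and NK cell genes, the chemokine gene Ccl5 was called higher in Dhep liver (1.49), where 0.503% of all probes were. Limma had 5 of the 7 higher and 0 lower in liver at an unadjusted p under 0.05, where 17.1% of all probes were higher. In hepatocytes 0 were called, with 4 higher at an unadjusted p under 0.05 by limma. At that threshold 29.8% of all probes were higher in hepatocytes and 28.1% lower. Of 2 measured B cell genes 0 were called, with 0 at an unadjusted p under 0.05 by limma in either genotype comparison, and Blk, Cd22, Ms4a1 and Pax5 did not pass the floor. Of 4 measured bile duct genes 0 were called for genotype, and limma had 2 lower in hepatocytes and 1 each way in liver at an unadjusted p under 0.05. Of 3 red cell genes, Hba-a1, an alpha-globin gene, was called higher in Dhep liver (1.67) and had -0.99 in hepatocytes, and its isolation difference in Dhep mice was -2.34. Alas2 had -0.34 in liver and -0.19 in hepatocytes, Slc4a1, near the floor, had 0.01 and 0.08, and neither was called. Their isolation differences in Dhep mice were -0.28 and -0.02. At an unadjusted p under 0.05, limma had 1 red cell gene higher and 1 lower in liver, and 0 higher and 2 lower in hepatocytes. Hba-a1 and Cd163 were thus both lower in isolated hepatocytes than in liver in Dhep mice.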

How the data were processed

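RNA of 12 arrays was measured by hybridization of biotinylated cRNA, per the labels' protocols. The authors deposited 1 table of raw linear bead intensity, without normalization, and 1 of normalized intensity made by a method that the sources used here do not name. BeadStudio is named in the submitters' processing notes, with no version. The raw table carries no detection p. With limma 3.58.1 (R 4.3.3), raw intensities underwent normexp background correction at an offset of 50, a log2 transform and quantile normalization. Log2 values were computed from the deposited raw intensity, except where the authors' normalized table is named. No column of another series was found. A single gene symbol was given for 34885 of the 45281 probes, several for 18 and none for 10378, and 22859 (50.5%) were kept by the floor described above. The number of arrays and of mice limits the precision.

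All arrays entered 1 linear model with a mean for each of the 4 groups, by lmFit and eBayes (8 residual and 14.8 prior degrees of freedom). SE are from limma. Group, preparation and replicate came from the labels. The members and the 15 gene lists, with 163 genes measured of 214, were chosen with earlier results of these data known. Each gene was represented by its brightest kept probe. The text names every member, up to 4 genes of each other list with the largest difference, and the 5 nearest profiles of Marco, Cd163 and Clec4f. Vsig4, C4b and the haem handling genes other than Hmox1 fall outside this rule where they are given. So do Camp, Ltf, Mpo, Elane and the named hepatocyte genes. All were chosen after their values were seen, as were the further contrasts given for Timd4 and Folr2. Alternatives were an offset of 16, no background correction, the authors' table, median scaling, cyclic loess, other filters, a trended prior, a replicate block, no fold threshold, treat, a fit of only the groups compared, all probes of a gene, and leaving out each array. Fits were tested on simulated data. Promoters are RefSeq sequences of GRCm38.p6.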

Additional observations from a re-analysis of the deposited data

Results flagged for a closer look

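The genotype difference (Dhep minus FF) differed between hepatocytes and liver for 3 marker probes by the test of that difference. Cd163 had an interaction of -1.56 log2 units, the hepatocyte difference minus the liver difference. Mpeg1 had 1.08 on its brightest probe and Adgre1 1.01 on its second probe. The call of Adgre1 was lost with no background correction (0.97), with the authors' normalized table (0.87), with cyclic loess (0.85) and without any of 3 single arrays: FF liver replicate 1 (0.99), Dhep liver replicate 1 (0.98) and FF hepatocytes replicate 3 (0.97). The dim probe of Mpeg1 gave 0.58 and was not called. In the test behind these calls, the 3 arrays of a group served as replicates. If each group holds 1 RNA sample of 1 mouse, as treated here, the calls carry no spread between mice.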

How the results depend on the processing

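Leaving out each array changed no number of markers called: 6 higher and 0 lower in liver, 6 and 1 in hepatocytes, 1 and 1 for isolation in Dhep mice, 0 and 0 in FF mice, and 1 and 1 for the interaction. Without the fold threshold, 1 marker (Cd163) was called lower in liver, 7 higher for isolation in Dhep mice, 2 higher and 1 lower for isolation in FF mice, and 5 higher for the interaction. Over all 22859 probes, that setting called 3361 lower in liver and 4883 higher for isolation in Dhep mice. It called 4778 higher and 6141 lower for isolation in FF mice, and 5467 higher for the interaction. When every kept probe of a gene had to be called, 4 were higher in hepatocytes, 3 higher in liver, 0 higher for isolation in Dhep mice and 0 higher for the interaction. Median scaling gave 3 higher for the interaction and turned the markers' median for isolation in FF mice to -0.39, and it moved the median over all probes by 0.17 in the hepatocyte genotype comparison, -0.12 for isolation in FF mice and 0.21 for the interaction.

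Reversed values were small and lay mostly in the FF isolation comparison. There median scaling gave -0.42 for Mpeg1, -0.28, -0.044 and -0.24 for the Aif1 probes, -0.25 for C1qa, -0.36 for C1qb and -0.39 for C1qc. The brightest Adgre1 probe gave 0.0039 with the authors' table, 0.043 with cyclic loess and -0.079 to 0.00038 when 1 array was left out, positive without FF liver replicate 1. Its dimmer probes gave 0.030 with the authors' table and 0.13 and 0.038 with cyclic loess. The dimmest Aif1 probe gave -0.050 to 0.041 when 1 array was left out, negative without FF liver replicate 2 or 3 or FF hepatocytes replicate 3. For the interaction, Marco gave -0.0037 with cyclic loess, and C1qa gave -0.034 with the authors' table and -0.10 with cyclic loess. With 1 array left out C1qa gave -0.019 to 0.079, negative without FF liver replicate 1 or 2 or Dhep hepatocytes replicate 3. For isolation in the RNA means, the dim Clec4f probe gave 0.0034 with cyclic loess. The cause was not tested.

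Of the other macrophage genes, 2 were called higher and 0 lower for isolation in Dhep mice, and 1 to 2 higher and 0 to 1 lower when 1 array was left out. Over all probes, 115 were called higher and 21 lower in liver, and 82 and 30 with median scaling. In hepatocytes 278 and 283 were called, and 914 and 73 with median scaling. Isolation gave 113 and 108 in Dhep mice, and 168 and 72 with median scaling, and 286 and 44 in FF mice, and 115 and 551 with median scaling. The interaction gave 171 and 408, and 1900 and 112 with median scaling. Same-numbered arrays did not deviate together (r of -0.05 to 0.07 over 18 pairs), and a replicate block left every number of markers called as it was, with 115 higher and 21 lower over all probes in liver.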
